A study of Mus musculus with 20 samples.

Results

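The clustered protocadherins are the cadherin-like adhesion proteins encoded by the alpha, beta and gamma gene arrays, and 56 of the 32245 gene rows of the count table belonged to them. A row was a member when its symbol consisted of Pcdh, a cluster letter (a, b, ga, gb, gc or ac) and a number. The alpha cluster gave 13 members, 2 of them C types, the beta cluster 22, and the gamma cluster 21, made up of 12 gamma A, 6 gamma B and 3 gamma C genes. Pcdha10 and Pcdhgb8 were not analysed here. In the mm10 assembly, GENCODE release vM21 places all 56 on the plus strand of chromosome 18. The alpha members lie between 36930184 and 37187661, the beta members between 37264938 and 37524479, and the gamma members between 37661793 and 37841873. Low counts kept 2 members, Pcdha8 and Pcdhb1, out of the tests, and 54 were tested.

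Clustered protocadherins span the membrane with extracellular cadherin repeats, bind like isoforms on the facing cell and let a neuron tell its own branches from those of its neighbours. Each alpha or gamma gene has a large variable exon with its own promoter, which codes for the extracellular and transmembrane parts and is spliced to constant exons that code for an intracellular domain common to the cluster. Beta genes are read mainly from a large exon of their own and lack such a common domain. In most neurons the variable alpha, beta, gamma A and gamma B promoters are chosen at random, in a process that involves the factor CTCF, cohesin and DNA methylation, whereas the C types at the end of the alpha and gamma clusters follow the type and age of the neuron. In the hippocampus, these proteins are known for roles in dendrite shape, synapse number and neuron survival.

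All libraries came from the hippocampus of mice that carried Rbp4-Cre and RiboTag, an allele that adds an HA tag to the ribosomal protein RPL22 wherever Cre has acted, and RNA bound to the tagged ribosomes was pulled down with anti-HA beads and sequenced after selection of poly-adenylated RNA. The tag thus marks the cells in which the Rbp4-Cre transgene was active, which the labels call granule cells, and every age shared this genotype, so that no untagged or unselected control was compared here. The mice were 5 days old (P5, for postnatal day) in 5 of the 20 libraries, and the later ages P7, P10, P15, P21 and P28 had 3 libraries apiece. By the batch field of the labels, 3 of the P5 libraries and those of P10 and P15 form batch A, 2 P5 libraries and those of P7 form batch B, and those of P21 and P28 form batch C. Age and batch C therefore cannot be told apart in any comparison of P21 or P28 with an earlier age. The labels do not say whether libraries came from separate animals or pools, so the p-values measure the spread between these libraries, which may be technical.

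Total counts per library ranged from 15.9 to 24.9 M, at which 3 counts, the level below which a gene could not be told from 0, equal 0.122 to 0.181 counts per M (CPM). All 10 granule cell markers were detected in every library, but without an unselected control they cannot show how far granule cells were enriched. Prox1, the transcription factor of dentate granule cells, measured between 410 and 655 CPM in every library. From P5 to P15, 7 of the 10 markers were called higher, beside 31.6% of all genes tested. RNA of other cells was present as well. From P5 to P15 the summed CPM of 11 oligodendrocyte lineage markers went from 169 to 236 up to 1037 to 1813. Of these markers, 7 were higher and 4, Pdgfra, Cspg4, Olig1 and Olig2, were lower. Mbp alone held 664 to 1148 CPM at P15. The summed CPM of 7 endothelial and mural markers went from 75.4 to 139 down to 35.2 to 49.0. That of 5 Cajal-Retzius cell markers went from 116 to 158 down to 34.3 to 39.3. All 7 and all 5 markers of these last 2 lists were lower past the threshold. Of all genes tested, 31.8% were lower and 31.6% higher at P15 than at P5, and 36.4% and 35.2% at P28. Of 8 interneuron markers, 6 were higher and 1 lower at P15 than at P5, and 2 higher and 2 lower at P28. Their summed CPM was 160 to 185 at P5, 272 to 328 at P15 and 251 to 276 at P28. The part of these cells in the members' changes was not tested.

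How well the members can be told apart in short reads differs between the clusters. All 13 alpha and all 21 gamma members share the constant exons, and only 45.1 to 71.5% of the annotated exonic bases of an alpha member and 33.2 to 68.5% of those of a gamma member belonged to it alone. Reads in the constant exons had not been added in number to every gene, because Pcdha8, whose annotation includes the same alpha constant exons, held 0 to 7 counts in every library, at most 6.19% of the cluster's sum if that number was added to each member. For the gamma cluster the lowest member held 18 to 95 counts per library, and the same bound was 25.7%. The share of a member's own windows of 50 bases that another member also held was highest for Pcdha7 (23.4%) in the alpha, Pcdhb12 (12.0%) in the beta and Pcdhgb1 (16.8%) in the gamma cluster, and it was 0% for all 5 C types. Annotated antisense genes covered all 2613 own bases of Pcdhga10, 1381 of the 2637 of Pcdhga11 and 1559 of the 3380 of Pcdhgc3. They also covered 1927 of the 3034 own bases of Pcdhb12 and 3338 of the 7174 of Pcdha11. Smaller stretches, of 393 to 771 bases, were covered in Pcdha4, Pcdha6, Pcdha12, Pcdhga1, Pcdhga7, Pcdhga8, Pcdhga12 and Pcdhgb7. Although the library kit marks strand, the strand setting of the counting is not given in the sources used here. All these members may thus hold reads of the opposite strand.

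The alpha and gamma clusters had much lower summed expression at P15 and P28 than at P5. The beta sums of P28 overlapped with those of P5 in batch B and lay below those in batch A. The alpha sum was 102, 105, 112, 115 and 121 CPM in the P5 libraries (the first 3 of batch A), 51.6, 47.1 and 44.8 CPM at P15 and 43.6, 44.0 and 44.8 CPM at P28, so that these later libraries all lay below every P5 library. The gamma sum was 341 to 384 CPM at P5, 167 to 189 at P15 and 196 to 201 at P28, again with no overlap. For the beta cluster, the P5 libraries held 185, 191 and 195 CPM in batch A and 165 and 172 in batch B. Those of P15 held 126 to 144 CPM and those of P28 161 to 174. The P28 libraries thus overlapped with the P5 libraries of batch B and lay below every P5 library of batch A. All 56 members together summed to 646 ± 21.8 CPM (SD, n = 5) at P5, 359 ± 23.7 (n = 3) at P15 and 410 ± 6.53 at P28. The beta share of this sum accordingly went from 28.1 ± 2.10% at P5 to 41.0 ± 1.02% at P28, and the alpha share from 17.2 ± 0.933% to 10.8 ± 0.210%. These sums were described and not tested. In bulk libraries, fewer cells that express a gene and less RNA per cell cannot be told apart.

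**Figure D1:**
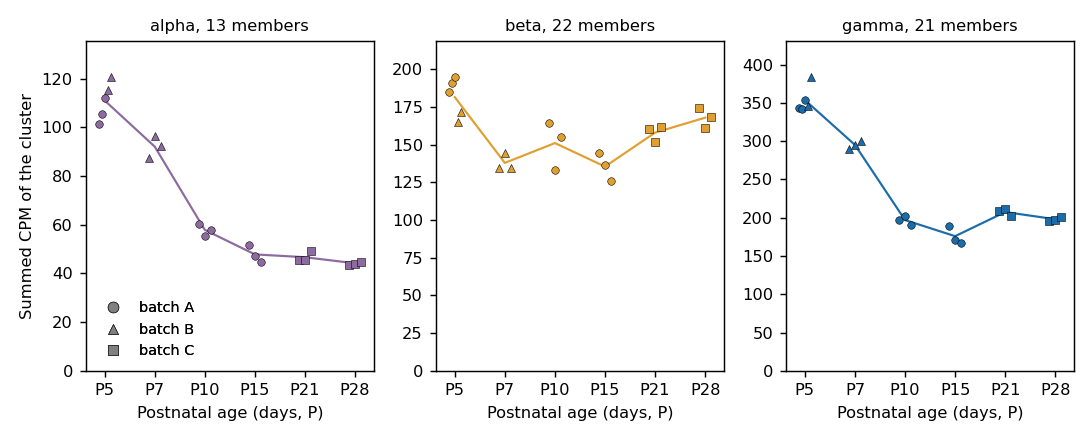
Summed CPM of the alpha, beta and gamma members (vertical axes, each from 0) at the 6 postnatal ages (horizontal axes). Points are libraries, shapes are batches and lines join the age means. Alpha and gamma sums at P10 and later lie below every P5 library. Beta sums at P28 (161 to 174) overlap with P5 of batch B (165 and 172) and lie below P5 of batch A (185 to 195).

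From P5 to P15, the longest span inside a batch, 43 of the 54 tested members fell and 1, Pcdhgc5, rose (edgeR quasi-likelihood test, Benjamini-Hochberg adjustment over all 15373 genes tested). Of all genes tested, 31.8% fell and 31.6% rose in this comparison. Every one of the 12 tested alpha members fell, as did 20 of 21 gamma members and 11 of 21 beta members, and the other 10 beta members did not pass the threshold. The median log2 change was -1.35 over the alpha, -1.24 over the gamma and -0.37 over the beta members, beside -0.02 over all genes. With the batch term, changes from P5 to P10, P15 and P28 are in effect measured from the 3 P5 libraries of batch A. For 38 of the 54 tested members, all of them called lower, the P15 libraries lay below every P5 library, beside 29% of all genes tested. The 5 that fell although their libraries overlapped were Pcdhb4, Pcdhb11, Pcdhb16, Pcdhb17 and Pcdhb18, all of the beta cluster. For Pcdhb18 the fall holds against batch A only. Its P15 libraries held 6.76 to 7.48 CPM, and those of P5 8.80 to 9.49 in batch A but 6.12 and 6.52 in batch B.

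From P5 to P28, 39 members fell and 2 rose, Pcdhgc5 and Pcdhb3, while 36.4% of all genes fell and 35.2% rose. All 12 tested alpha members, 20 gamma members and 7 beta members were lower, and the median log2 changes were -1.54, -1.02 and -0.19 in the alpha, gamma and beta clusters (-0.01 over all genes). Over all 6 ages, 45 of 54 members differed between ages (12 of 12 alpha, 21 of 21 gamma and 12 of 21 beta), beside 79.7% of all genes. A member's place in its cluster ran only weakly with its change. Without the C types, Spearman's rho between position and log2 change lay between -0.37 and -0.12 in the 3 clusters and both spans, over 10 alpha, 21 beta and 18 gamma A and B genes, which are not independent replicates.

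**Figure D2:**
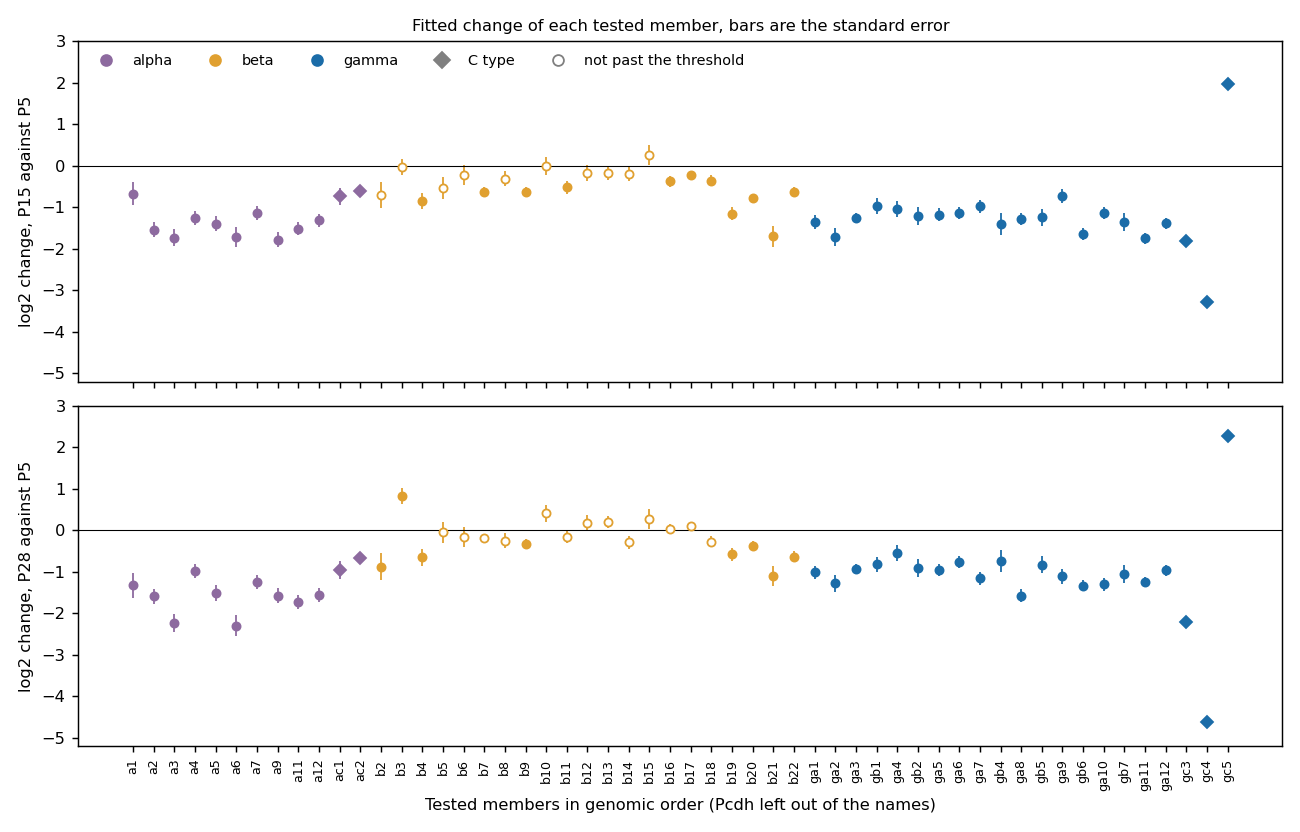
Fitted log2 change (vertical axis) of the 54 tested members in genomic order (horizontal axis) from P5 to P15 above and from P5 to P28 below. Points are estimates, bars are standard errors, diamonds are C types and open symbols did not pass the threshold; alpha and gamma members lie below 0 except Pcdhgc5 (1.97 and 2.27), and beta members lie between -1.11 and 0.82 toward P28.

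The 3 gamma C genes, which sit next to each other at the end of the gamma cluster, parted in direction. Pcdhgc5 (ENSMUSG00000102543.5, 37819513 to 37841873), whose protein is known to interact with GABA-A receptors at synapses, stood at 15.5, 17.8 and 17.996 CPM in batch A at P5 and at 32.6 and 35.4 CPM in batch B. It reached 54.3, 52.4 and 46.9 CPM at P7, 64.6, 71.7 and 65.3 at P10 and 70.2, 67.6 and 63.1 at P15. At P21 it stood at 86.1, 88.5 and 85.5 CPM, and at P28 at 82.3, 79.9 and 85.3. Every library from P7 on was above every P5 library, and the P5 libraries themselves formed separate batch groups. The fitted log2 change was 1.97 (SE 0.07, adjusted p = 8.8e-17) from P5 to P15 and 2.27 (SE 0.07, adjusted p = 2.3e-18) from P5 to P28, folds of 3.91 and 4.82 over the P5 mean of batch A. Over the P5 mean of batch B, 34.0 CPM, the ratios of mean CPM were 1.97 and 2.43, and P28 lies in batch C.

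Pcdhgc5 was also the member with the largest difference between the batches at P5, where batch B was higher by 0.99 on the log2 scale (SE 0.08, edgeR adjusted p = 1.4e-07). In the fit over all 20 libraries, the batch term in effect sets P7 against the P5 libraries of batch B. There its level at P7 was again above that at P5, by 0.59 (SE 0.08, edgeR adjusted p = 2.5e-05). Among all 54 members, 1 other differed between the batches, Pcdhb18, which was lower in batch B by a log2 change of -0.52 (adjusted p = 0.027). Of all genes tested, 6.65% were higher and 3.42% lower in batch B. What sets the batches apart at P5 was not tested.

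Pcdhgc4 (ENSMUSG00000023036.14, 37815079 to 37841873), the gamma isoform known to be needed for the survival of neurons, went the other way and had the deepest fall of all tested members. It measured 48.7, 52.6, 50.4, 50.2 and 53.9 CPM at P5, with the batches intermixed. Its own exons have no annotated antisense gene. The values were 32.3, 37.2 and 38.7 CPM at P7, 11.1, 7.17 and 10.8 at P10 and 4.87, 6.09 and 4.58 at P15. At P21 it had reached 2.80, 2.62 and 2.71 CPM, and at P28 2.30, 1.73 and 2.15, still above the level of 3 counts. No library of P7, P10, P15 or P21 overlapped with those of the age before. The log2 change was -3.28 (SE 0.13, adjusted p = 1.7e-16) from P5 to P15 and -4.62 (SE 0.15, adjusted p = 1.7e-18) from P5 to P28, which is 24.5-fold lower. This isoform is known from interneurons, whose markers moved in both directions, as given above. Lhx6, a factor of interneurons from the medial ganglionic eminence, was at 16.7 to 22.1 CPM at P5, 7.54 to 11.5 at P15 and 3.20 to 4.17 at P28 (log2 changes of -1.16 and -2.59, SE 0.15 and 0.16). It was the 1 interneuron marker called lower at P15. Gad1 went up, from 78.2 to 99.0 CPM at P5 to between 148 and 165 at P15 and between 189 and 198 at P28. Gad2 held 14.0 to 17.8 CPM at P5, 29.2 to 36.9 at P15 and 16.6 to 18.6 at P28. The part of interneurons in the fall of Pcdhgc4 was not tested.

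Pcdhgc3 (ENSMUSG00000102918.1, 37806364 to 37841873), known for promoting dendrite branching, also fell. It had 74.6, 68.8, 75.5, 57.05 and 66.4 CPM at P5, 43.7 to 48.2 at P7 and 19.7 to 26.3 at P10. The P15 libraries held 20.8, 20.2 and 21.2 CPM and those of P28 16.9, 14.0 and 16.3, all below any P7 library. The log2 change was -1.82 (SE 0.09, adjusted p = 6.9e-15) to P15 and -2.22 (SE 0.09, adjusted p = 1.4e-16) to P28. Unlike Pcdhgc4 and Pcdhgc5, part of Pcdhgc3 lies opposite an antisense gene, as stated above.

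**Figure D3:**
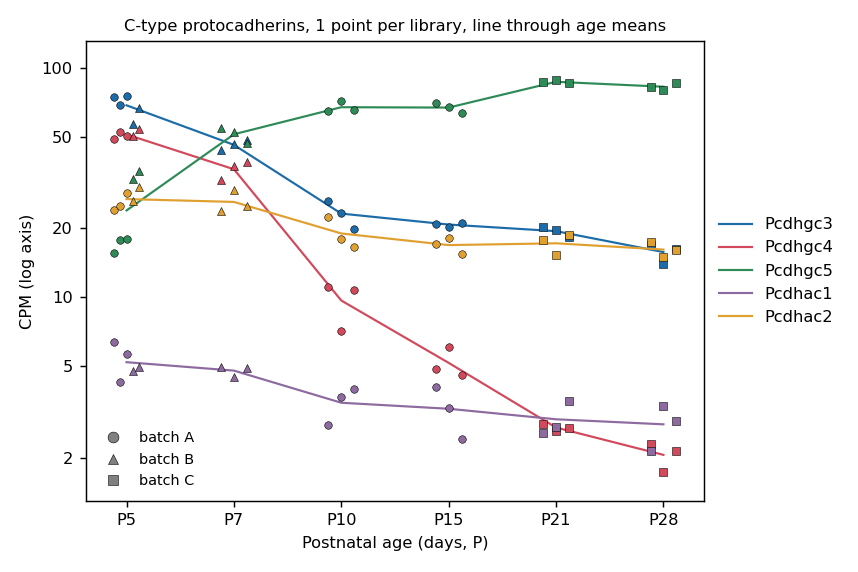
CPM of the 5 C-type members (vertical axis, log scale) at the 6 ages (horizontal axis), 1 point per library with the shape giving the batch and lines through the age means. Pcdhgc5 goes from between 15.5 and 35.4 at P5 to between 79.9 and 88.5 at P21 and P28, Pcdhgc4 from between 48.7 and 53.9 to between 1.73 and 2.30 at P28, and Pcdhgc3, Pcdhac2 and Pcdhac1 have smaller declines.

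Because reads scale with the length of a transcript, levels of different members were compared as CPM per kb of the exonic bases that belong to a member alone. On this scale Pcdhgc3 was the highest of the 55 members compared at P5, with 20.3 ± 2.20 CPM per kb (SD, n = 5), followed by Pcdhgc4 with 14.7 ± 0.603, Pcdhga11 with 12.8 ± 1.47 and Pcdhac2 with 8.84 ± 0.849. Pcdhgc5 stood second at P7 with 11.1 ± 0.833 CPM per kb (n = 3), next to Pcdhgc4 with 10.4 ± 0.969, a difference within their SDs, and first from P10 on. At P28 it measured 17.9 ± 0.592 CPM per kb. The next members there, Pcdhac2 with 5.33 ± 0.414, Pcdhb7 with 5.20 ± 0.263 and Pcdhga11 with 5.15 ± 0.167, did not differ from each other beyond their SDs. Pcdha11 was left out of this comparison because its symbol covers 2 gene entries in the annotation.

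Within the gamma cluster the shares of the C types moved in opposite directions, and that of the gamma A members was lower at the later ages. Of the summed gamma CPM per kb, Pcdhgc5 made up 4.45 ± 1.61% at P5 (3.28% on average in batch A and 6.20% in batch B), 11.9 ± 1.09% at P7, 24.8 ± 1.05% at P10 and 30.7 ± 0.906% at P28. The share of Pcdhgc4 went from 12.7 ± 0.499% to 1.02 ± 0.150%, and that of Pcdhgc3 from 17.5 ± 2.10% to 7.99 ± 0.798%. The 12 gamma A members together held 51.4 ± 0.764% at P5, 45.0 ± 1.33% at P21 and 47.4 ± 1.64% at P28, with no overlap between P5 and either later age, and the 6 gamma B members 13.9 ± 0.760%, 13.1 ± 1.28% and 12.8 ± 0.145%. Library by library, the ratio of Pcdhgc5 to Pcdhgc4 in CPM per kb was 0.241 to 0.496 in the P5 libraries. P7 libraries held ratios of 0.915 to 1.27, those of P10 4.39 to 7.56, those of P15 8.38 to 10.9, those of P21 23.2 to 25.5 and those of P28 27.0 to 34.9. The ranges of the 6 ages did not overlap. The effective number of members was the exponential of the Shannon entropy of the members' shares of a cluster's summed CPM per kb. For gamma it was 15.6 ± 0.520 at P5 and 12.98 ± 0.385 at P28, and for beta 17.2 ± 0.312 and 16.9 ± 0.256.

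**Figure D4:**
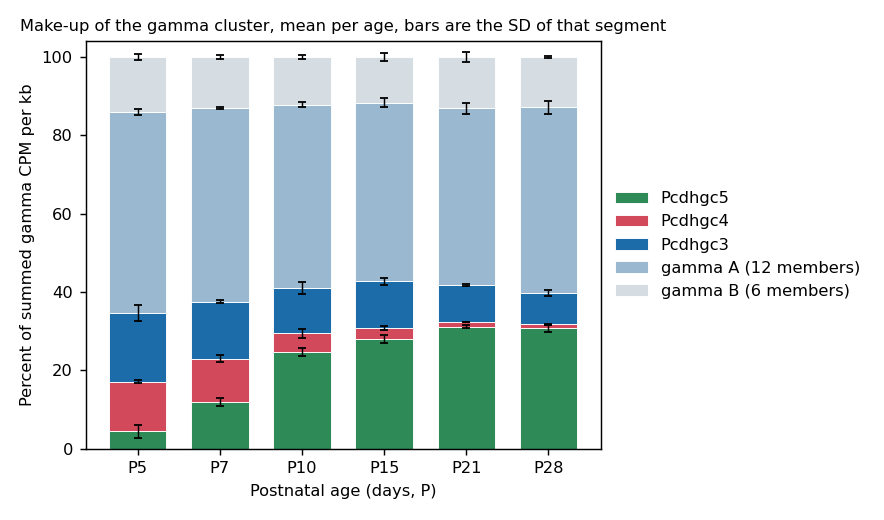
Percent of the summed gamma CPM per kb (vertical axis) that each gamma C gene, the 12 gamma A and the 6 gamma B members made up at each age (horizontal axis), as means over libraries with the SD of each segment. The Pcdhgc5 segment grows from 4.45% at P5 to 30.7% at P28 while those of Pcdhgc4 and Pcdhgc3 shrink, and that of gamma A goes from 51.4% to 47.4%.

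Both alpha C types fell, with fitted changes among the smallest of the alpha cluster, though no test set them against the others. Pcdhac2 (37143503 to 37187657), known for its part in the spacing of serotonergic axons, had 23.9, 24.9, 28.3, 26.3 and 30.3 CPM at P5 and 17.1, 18.1 and 15.4 at P15. At P28 it had 17.4, 14.9 and 16.0 CPM, and no P15 or P28 library reached a P5 library. The log2 change was -0.61 (SE 0.11, edgeR adjusted p = 4.6e-05) to P15 and -0.67 (SE 0.11, adjusted p = 1e-05) to P28. Its share of the alpha CPM was 24.1 ± 1.04% at P5 and 36.5 ± 3.12% at P28. Pcdhac1 (37090013 to 37187657) was lower in level, with 6.39, 4.28, 5.65, 4.78 and 4.98 CPM at P5 and 2.14, 3.36 and 2.90 at P28, and changed by -0.73 (SE 0.21, adjusted p = 0.0039) to P15 and -0.96 (SE 0.21, adjusted p = 0.00035) to P28.

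The 10 tested variable alpha members, each coding for a different recognition domain, fell together to P15, with log2 changes from -1.78 to -0.67, and to P28, from -2.30 to -0.99. The deepest fall to P15 was that of Pcdha9, with 7.83, 10.1, 10.6, 9.89 and 9.58 CPM at P5 and 3.41, 2.43 and 2.47 at P15 (-1.78, SE 0.19, adjusted p = 9.2e-09). Pcdha3 went from 7.45 to 10.0 CPM at P5 to between 2.01 and 3.05 at P15 (-1.73, SE 0.20) and between 1.48 and 2.15 at P28 (-2.23, SE 0.21, adjusted p = 1.2e-09). None of the P15 libraries of either gene, nor the P28 libraries of Pcdha3, overlapped with P5. Pcdha6 had the deepest fall to P28, from 5.02 to 7.26 CPM down to 1.04 to 1.52 (-2.30, SE 0.25), and Pcdha4 the shallowest, from 7.94 to 10.4 down to 3.99 to 4.44 (-0.99, SE 0.16). Pcdha12, the variable alpha member with the highest mean CPM, went from 11.5 ± 1.19 (n = 5) to 4.29 ± 0.994 CPM (n = 3) at P15 and 3.60 ± 0.553 at P28. Pcdha1 was the shallowest to P15 (-0.67, SE 0.28, adjusted p = 0.041), and its call was lost in 7 of 29 alternative fits, with adjusted p up to 0.12. Pcdha8 held at most 7 counts in any library and no level can be given for it.

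Each of the 12 gamma A members fell to P15, with log2 changes from -1.74 to -0.73, and to P28, from -1.58 to -0.55. Pcdhga11 (ENSMUSG00000102742.1, 37755731 to 37841873), the highest of them, had 37.6, 30.2, 29.1, 35.5 and 36.4 CPM at P5, 11.6, 8.93 and 8.42 at P15 and 14.0, 13.2 and 13.6 at P28, with log2 changes of -1.74 (SE 0.14, adjusted p = 1.4e-10) and -1.25 (SE 0.13, adjusted p = 1.6e-08). Its P15 and P28 libraries all lay far below those of P5, and 1381 of its 2637 own bases lie opposite an antisense gene. Pcdhga3 went from 20.96 ± 1.37 CPM to 8.79 ± 1.89 at P15 and 10.9 ± 0.245 at P28, and Pcdhga12 from 19.9 ± 2.58 to 8.13 ± 1.52 and 10.8 ± 1.29. The next deepest fall to P15 was that of Pcdhga2, from 8.401 to 10.2 CPM down to 2.37 to 3.35 (-1.71, SE 0.21). Toward P28 the deepest were Pcdhga8, with 9.14 to 13.2 CPM at P5 and 3.62 to 3.72 at P28 (-1.58, SE 0.15), and Pcdhga10, with 12.3 to 14.3 and 4.12 to 6.24 CPM (-1.31, SE 0.15), the latter with an antisense gene opposite all of its own bases. Pcdhga9 was the shallowest to P15 (-0.73, SE 0.17) and Pcdhga4 the shallowest to P28 (-0.55, SE 0.19, adjusted p = 0.014).

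The 6 gamma B members behaved alike, with log2 changes from -1.64 to -0.96 to P15 and from -1.33 to -0.74 to P28. Pcdhgb6 was the highest, at 17.3, 14.3, 15.5, 16.6 and 19.7 CPM at P5, 4.66, 4.18 and 6.26 at P15 and 6.42, 6.50 and 5.74 at P28 (-1.64, SE 0.14, adjusted p = 4.3e-10, and -1.33, SE 0.14). All of its later libraries were below those of P5. The shallowest were Pcdhgb1 to P15 (-0.96, SE 0.19, from 7.89 ± 1.49 to 3.85 ± 0.844 CPM) and Pcdhgb4 to P28 (-0.74, SE 0.26, from 3.88 ± 0.724 to 2.33 ± 0.434 CPM).

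Of the 21 tested beta members, 11 fell to P15 and 7 to P28. Pcdhb21 had the deepest fall, from 4.26, 3.18, 3.61, 3.06 and 4.49 CPM at P5 to 1.31, 1.19 and 0.895 at P15 and 2.14, 1.73 and 1.22 at P28 (-1.70, SE 0.25, adjusted p = 2.8e-06, and -1.11, SE 0.24). Pcdhb19 went from 8.98 to 13.5 CPM to between 4.47 and 5.73 at P15 (-1.15, SE 0.16, adjusted p = 7.9e-07) but stood at 6.67 to 8.995 at P28 (-0.58, SE 0.15), where it overlapped with P5. The beta members with the highest mean CPM were Pcdhb17, Pcdhb7 and Pcdhb22. Pcdhb17 measured 19.8, 19.8, 21.5, 18.6 and 18.1 CPM at P5, 19.2, 18.3 and 14.8 at P15 and 22.2, 21.1 and 21.9 at P28, with log2 changes of -0.22 (SE 0.09, adjusted p = 0.032) and 0.09 (SE 0.09, adjusted p = 0.36). Pcdhb7 was lower at P15 (13.5 ± 1.71 CPM, from 19.5 ± 2.08) with -0.62 (SE 0.10, adjusted p = 1.2e-05), and its 18.2 ± 0.919 CPM at P28 differed from P5 by -0.19 (adjusted p = 0.10). Pcdhb22 fell over both spans, from 17.3 ± 2.38 CPM to 11.7 ± 0.783 at P15 and 11.7 ± 2.18 at P28 (-0.63 and -0.64, SE 0.13 each). The calls for Pcdhb16, Pcdhb17 and Pcdhb18 from P5 to P15, with changes of -0.37, -0.22 and -0.36, were each lost in 4 or 5 of 29 alternative fits, and that for Pcdhb2 (-0.71, SE 0.31, adjusted p = 0.052) was gained in 8.

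Pcdhb3 was the only beta member that rose to P28. It had 5.52, 4.98, 4.95, 5.69 and 4.69 CPM at P5, 5.08, 5.21 and 4.89 at P15, 8.83, 6.74 and 7.34 at P21 and 10.5, 7.87 and 8.99 at P28. All libraries of P21 and P28, which are those of batch C, were above all of P5 and P15, and the log2 change was -0.02 (SE 0.20) to P15 and 0.82 (SE 0.19, adjusted p = 0.00044) to P28. At P10 its libraries were spread, with 7.66, 3.91 and 7.22 CPM, and so were those of nearby Pcdhb5 (13.7, 4.88 and 11.1 CPM), chosen after its values were seen, and Pcdhb2 (2.41, 1.02 and 2.41 CPM). The summed CPM of 7 markers of CA pyramidal cells, the other large class of hippocampal excitatory neurons, was 838, 247 and 674 in these same libraries, and that of Wfs1, a marker of CA1, was 422, 41.6 and 263. The marker sums were 273 to 449 CPM at P5 and 455, 264 and 415 CPM in the P28 libraries with 10.5, 7.87 and 8.99 CPM of Pcdhb3. The part of pyramidal cell RNA in the levels of Pcdhb2, Pcdhb3, Pcdhb4, Pcdhb5 and Pcdhb12 was not tested.

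**Figure D5:**
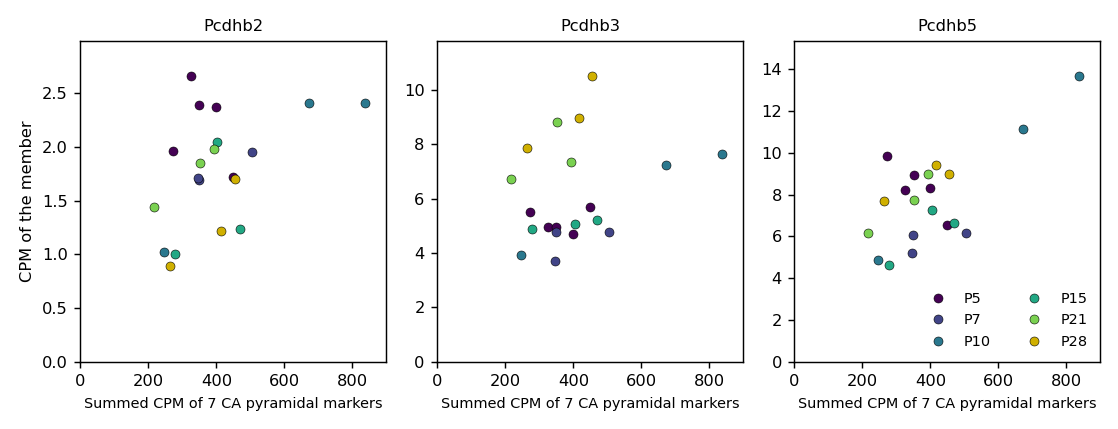
CPM of Pcdhb2, Pcdhb3 and Pcdhb5 (vertical axes, from 0) against the summed CPM of 7 CA pyramidal markers (horizontal axes) in the 20 libraries, coloured by age. The P10 libraries with marker sums of 674 and 838 hold the 2 highest values of Pcdhb5 (11.1 and 13.7), while Pcdhb3 at P21 and P28 (6.74 to 10.5) is above its P5 values (4.69 to 5.69) at marker sums of 218 to 455.

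Calls were many in the comparisons of P10 and later with P5 and few in the later steps. From P5 to P7, 10 members fell and 1 rose, beside 4.89% and 6.15% of all genes. Those that fell were Pcdha7 and Pcdha11, Pcdhb17, Pcdhga1, Pcdhga3, Pcdhga6 and Pcdhga11, Pcdhgb6, and Pcdhgc3 and Pcdhgc4, and Pcdhgc5 rose. The largest of these falls was that of Pcdha11 (-0.79, SE 0.15, adjusted p = 0.0015). This count rests on 2 P5 libraries of batch B and was 4 without replicate 1 and 5 without replicate 3 of them. From P5 to P10, 42 fell and 1, Pcdhgc5, rose, beside 30.6% and 30.8% of all genes.

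Between P10 and P15, 2 members fell, Pcdhgc4 (-0.90, SE 0.14, adjusted p = 0.00095) and Pcdhga11 (-0.59, SE 0.14, adjusted p = 0.021), beside 2.52% of all genes that fell and 1.84% that rose. The count was 6 without P10 replicate 2, and 1 at the lowest when another library was left out. From P21 to P28, edgeR called 0 of 54 members, beside 0.065% of all genes higher and 0.189% lower. At an unadjusted p under 0.05 there were 5, and DESeq2 and limma-voom also called 0. Log2 changes of the members lay between -0.51 and 0.38 in this last step.

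Genes known to act on the locus moved in both directions. Of 24 genes of chromatin architecture and silencing, 9 fell and 2 rose from P5 to P15 (median log2 change -0.06), and 9 fell and 8 rose to P28. Among all genes, 31.8% fell and 31.6% rose to P15, and 36.4% and 35.2% to P28. The smallest p were those of Dnmt1, the maintenance DNA methyltransferase (-0.71, SE 0.07, from 81.4 ± 7.19 to 47.4 ± 3.49 CPM), Wapl, which releases cohesin from DNA (0.62, SE 0.08), and Setdb1, a histone H3 methyltransferase (-0.50, SE 0.07). Ctcf, whose product binds the promoters of the locus, had 72.6 ± 3.08 CPM in the P5 and 78.2 ± 3.56 CPM in the P15 libraries, a log2 change of 0.10 (adjusted p = 0.14).

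Of 30 genes for intracellular partners and processing of the protocadherins, 15 rose and 5 fell to P15 (median log2 change 0.14), and 17 rose and 10 fell to P28 (median 0.22), beside the same 31.6% and 31.8% of all genes to P15 and 35.2% and 36.4% to P28. The smallest p were those of Ptk2b, Wasf1 and Abi1. Ptk2b, the kinase PYK2 that protocadherin tails bind and inhibit, changed by 2.29 (SE 0.10). At P5 it held 232 to 247 CPM in batch A, from which the change is measured, and 369 and 402 in batch B. The P15 libraries held 1169.7 ± 20.98 CPM. Wasf1 and Abi1, subunits of the WAVE complex of actin assembly, changed by 1.15 and 1.07 (SE 0.06 each). No test set this list against the members.

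The genes that flank the clusters did not share a direction. Of the 12 tested, 5 rose and 4 fell to P15, and 5 rose and 7 fell to P28, beside 31.6% and 31.8% of all genes to P15 and 35.2% and 36.4% to P28. Diaph1, an actin nucleator, has its gene from 37843601 to 37935476 on the minus strand, just beyond the end of Pcdhgc5. It rose by 0.89 on the log2 scale (SE 0.06, edgeR adjusted p = 4.8e-12) to P15. At P5 it held 41.8 to 45.8 CPM in batch A, from which the change is measured, and 56.1 and 58.3 in batch B. The P15 libraries held 81.3 ± 2.42 CPM. Zmat2, ahead of the alpha cluster, rose by 0.82 (SE 0.07), and Fchsd1, beyond Diaph1, changed by -2.26 (SE 0.17), from 18.1 ± 0.413 to 3.83 ± 0.503 CPM. Taf7, between the beta and gamma clusters, had 10.5 ± 1.04 CPM in the P5 and 8.56 ± 0.769 CPM in the P15 libraries, a log2 change of -0.27 (adjusted p = 0.091), while Slc25a2 beside it had too few counts to be tested.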

How the data were processed

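Ribosome-bound RNA from mouse hippocampus was sequenced in 20 libraries of 6 ages. The authors deposited 1 table of raw counts per gene, made with STAR 2.7.5b, SAMtools 1.10 and featureCounts on mm10 per the submitters' processing notes. Nothing used here states the counting's annotation, strand or multi-mapping settings. Counts were fitted with edgeR 4.0.16 (R 4.3.3; TMM, filterByExpr by age, robust quasi-likelihood F test) with age and batch B against A as terms, over all 20 libraries. The residual degrees of freedom were 13, 15373 of 32245 genes were tested, and p-values were adjusted over all of them by Benjamini-Hochberg with a threshold of 0.05. The script was tested on simulated counts. CPM use TMM-scaled library sizes. The level of 3 counts covers counting error only. Coordinates and exonic bases came from GENCODE vM21.

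The members and gene lists were chosen with earlier results of these data known. Named were the C types, the 3 members with the highest mean CPM in each group, those with the 3 highest or lowest called changes to P15 and P28, called members of P7 against P5 and of P28 against P21, and per list the 3 smallest p to P15. Ctcf, Taf7, Prox1, Wfs1, Pcdhb5, Pcdhb12 and Pcdhb13 were named outside this rule after their values were seen. Alternatives were other scalings and filters, DESeq2 1.42.0, limma-voom (limma 3.58.1), no batch term, a replicate block, single batches and each library left out.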

Additional observations from a re-analysis of the deposited data

Results flagged for a closer look

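At P5, the group of 5 libraries, 45 member and cluster values were checked for a library standing apart from the others by Dixon's ratio at the critical value of 0.71, which chance passes in about 5% of groups, and 3 values passed. Pcdhga4 measured 6.87 CPM in P5 replicate 3 of batch A and 5.82 to 6.04 CPM in the others. Pcdhgb2 measured 9.18 CPM in P5 replicate 3 of batch B and 6.04 to 6.65 CPM in the others. The gamma sum was 384 CPM in P5 replicate 3 of batch B and 341 to 353 CPM in the others.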

How the results depend on the processing

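Changes of the named members were followed through the alternative runs only from P5 to P15 and from P21 to P28. No change called from P5 to P15 took the opposite sign in any of these runs. Estimates that were not called did, 1 of 42 from P5 to P15 (Pcdhb3, -0.15 to 0.03) and 10 of 42 from P21 to P28. The count of members called from P5 to P7, 11, was 21 with library totals, 17 with limma-voom and 24 with no batch term, and between 4 and 12 when a library was left out (4 and 5 without replicate 1 and replicate 3 of P5 in batch B). The count between the batches at P5, 2, was 4 with library totals and with limma-voom, 1 with no filter, and between 1 and 3 with a library left out. From P10 to P15, the 2 calls became 4 in DESeq2's test and 1 to 6 with a library left out. With a library left out, P5 to P10 gave 41 to 44 calls, P5 to P15 41 to 46 and P5 to P28 39 to 41. Library totals moved the median of all genes from P5 to P15 from -0.02 to -0.14 and the share of all calls that were higher from 49.8% to 39.2% (P10 50.1% to 37.6%, P7 55.7% to 17.96%, P28 49.2% to 40.9%, batch 66.1% to 30.0%, P10 to P15 42.2% to 47.9%, P21 to P28 25.6% to 51.5%). Within batch A alone, P5 to P15 gave 42 calls. Of same-numbered replicates, 7 of 57 pairs had a correlation of deviations over 0.1 (from -0.256 to 0.248, mean -0.015, beside a mean of 0.008 for pairs of different number). The deviations were taken within groups of 2 or 3 libraries, so these values cannot decide whether same-numbered libraries were paired. With the replicate block the batch count was 1 and the count from P5 to P15 was 45. The cause of these shifts was not tested. Depth limits Pcdha8 and Pcdhb1, for which no change can be read.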
